A study of Mus musculus with 8 samples.

Results

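Insr, Irs2 and 8 genes that lie near them on mouse chromosome 8 (Shcbp1, Efnb2, Arglu1, Lig4, Abhd13, Rab20, Naxd and Ing1) were followed across 8 primary mouse osteosarcomas, 10 genes of 19938 measured. They were chosen from the measured values: each gene's value in each tumour was set against the median of the other 7 tumours, and the genes were picked with those values in view. The height of these deviations is therefore a description and carries no test. All 10 members had a probe set with a single gene symbol, and where a gene had several the one with the highest mean was used. No filter on low values was applied, so no member was lost.

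Osteosarcoma is a cancer of bone whose cells make bone matrix. The shRNA OS model (4 tumours) carried the p53 hairpin P53.1224, and the Cre:lox OS model (4 tumours) carried P53fl/fl alleles. All mice were of strain C57Bl6. Within shRNA OS, replicates 1, 3 and 4 were Rbfl/+ and replicate 2 was Rb+/+, and the tumours came from the tibia except replicate 4, from the humerus. Within Cre:lox OS, replicates 2, 3 and 4 were Rbfl/+ and replicate 1 was Rb+/+, with replicate 1 from the scapula, replicate 2 from the humerus and replicates 3 and 4 from the tibia. The labels used here name neither the promoter that drives the Cre or the hairpin nor an age. Each array held RNA of a whole tumour, so more cells of one kind and more RNA per cell cannot be told apart.

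Values are log2 expression values, on which a difference of 1 is a 2-fold difference. The array medians lay between 7.13 and 7.23. One library, shRNA OS replicate 2, was least like the rest: its correlation over all probe sets averaged 0.941, while each of the other 7 tumours averaged 0.961 to 0.968. Genes whose mean signal over the 8 tumours lay above the median of all genes had a median deviation of -0.28 in it. Of the members, 9 of 10 are such genes. Of 15 osteoblast markers 11 were measured, and their mean level was 11.19 to 11.54 in shRNA OS and 10.70 to 10.95 in Cre:lox OS. Over the 8 tumours the bone collagen gene Col1a1 was 13.00 to 13.61, Ibsp 12.91 to 13.52 and the osteoblast factor gene Sp7 9.32 to 10.63, while Phex ran from 6.52 to 12.00, Omd from 5.16 to 8.77 and Dmp1 from 7.75 to 10.03. Col1a1, Ibsp and Sp7 were named after their values were seen.

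Insulin and insulin-like growth factors act through receptor tyrosine kinases, of which the insulin receptor, encoded by Insr, is one. The activated receptor phosphorylates adaptor proteins, among them the insulin receptor substrate encoded by Irs2, which recruit phosphatidylinositol 3-kinase and so lead to Akt. In bone, insulin signalling in osteoblasts is known to promote their growth and differentiation. The other members share with these genes their place on the chromosome and not a pathway. Among the measured genes of chromosome 8, in the gene order of the reference table, Insr held rank 1, Shcbp1 rank 36, Efnb2 rank 38, Arglu1 rank 39, Lig4 rank 41, Abhd13 rank 42, Irs2 rank 46, Rab20 rank 49, Naxd rank 50 and Ing1 rank 52.

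In Cre:lox OS replicate 1, the scapular Rb+/+ tumour, 8 of the 10 members lay at least 0.5 above the median of the other tumours, and 7 had their highest value there. Over all genes, 5.53% reached that deviation in this tumour and 9.11% had their highest value in it. The median deviation of the members was 1.03 in Cre:lox OS replicate 1, which is 2.04-fold, and between -0.52 and 0.30 in the other 7 tumours. Irs2 and Rab20 were the members that did not share this height. As the members were picked on these deviations, nothing is read from the counts.

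**Figure D1:**
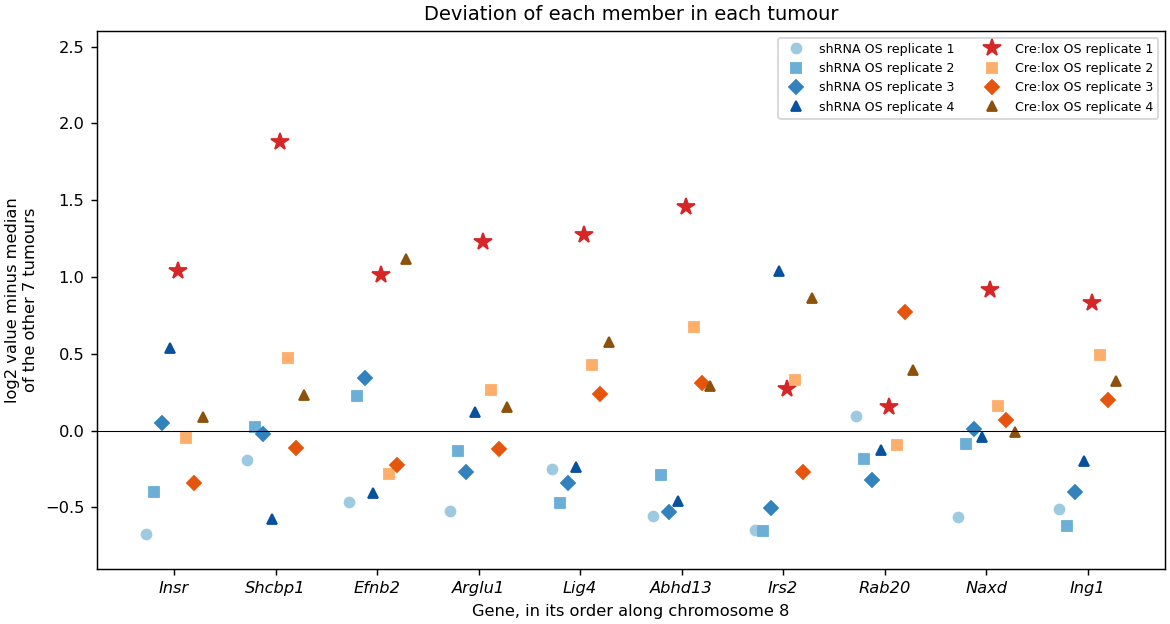
Each point is the log2 value of a gene in a tumour minus the median of the other 7 tumours, with the genes along the x axis in their chromosomal order and a symbol for each tumour. Cre:lox OS replicate 1 (red star) is the highest point for 7 of the 10 genes, while Irs2 is highest in shRNA OS replicate 4, Efnb2 in Cre:lox OS replicate 4 and Rab20 in Cre:lox OS replicate 3.

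Insr was 9.48, 9.76, 10.16 and 10.65 in shRNA OS replicates 1 to 4, against 11.16, 10.11, 9.82 and 10.20 in Cre:lox OS replicates 1 to 4. Cre:lox OS replicate 1 was the highest and shRNA OS replicate 4 the next, and the models overlapped. The value in Cre:lox OS replicate 1 was 1.04 above the median of the others, or 2.06-fold. A further Insr probe set gave 10.59 in Cre:lox OS replicate 1 against 8.89 to 10.12 in the other tumours, a deviation of 1.16.

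Irs2, the adaptor downstream of the receptor, was 7.33, 7.32, 7.47 and 8.74 in shRNA OS replicates 1 to 4, against 7.98, 8.03, 7.70 and 8.57 in Cre:lox OS replicates 1 to 4. It was high in shRNA OS replicate 4 and Cre:lox OS replicate 4, and the models overlapped. In Cre:lox OS replicate 1 its deviation was 0.27. The genes after it in the gene order, Col4a1 (0.78) and Col4a2 (0.95), which encode chains of basement membrane collagen, were higher there. The gene before it, 3930402G23Rik, was lower (0.11) and has a mean signal below the median of all genes. These neighbours were named after their values were seen. Rab20, a small GTPase of endosomes and phagosomes, was 7.05, 6.86, 6.73 and 6.93 in shRNA OS replicates 1 to 4, against 7.11, 6.96, 7.73 and 7.35 in Cre:lox OS replicates 1 to 4. The highest value was in Cre:lox OS replicate 3, the deviation in Cre:lox OS replicate 1 was 0.15, and the models overlapped. Rab20 was also the member whose mean signal lay below the median of all genes.

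Promoter windows of RefSeq (GRCm38.p6) run from 250 bases before to 50 bases after a gene's start and were matched for 7 members, all but Insr, Shcbp1 and Arglu1. The genome build named for the arrays, mm9, is another one, so these positions belong to the windows and not to the probe sets. Of the 3 motifs searched on both strands, GGGCGG was found in 11 of 13 windows of the members, against 35.7% of 32851 windows of all genes, and CCAAT in 7 of 13, against 37.4%. Ing1 has 5 of the 13 windows and Naxd and Lig4 have 2 each, some of them overlapping, and counted by gene GGGCGG was found for 6 of 7 members and CCAAT for 4 of 7. The members' windows hold 11 to 41 CG pairs, against a median of 7 over all windows. CACGTG, which reads the same on both strands, was found, among the members, in the windows of Irs2 and Rab20, against 7.15% of all windows. No motif contains another, and a match describes letters and not a bound factor. The Irs2 and Rab20 windows are shown with CACGTG in capitals, and were chosen after the members' values were seen. Insr, Shcbp1 and Arglu1 had no window to search, and no link between the motif and the values was tested. The Irs2 window is chr8:11008880-11009179 on the minus strand and that of Rab20 chr8:11478591-11478890 on the minus strand.
Irs2: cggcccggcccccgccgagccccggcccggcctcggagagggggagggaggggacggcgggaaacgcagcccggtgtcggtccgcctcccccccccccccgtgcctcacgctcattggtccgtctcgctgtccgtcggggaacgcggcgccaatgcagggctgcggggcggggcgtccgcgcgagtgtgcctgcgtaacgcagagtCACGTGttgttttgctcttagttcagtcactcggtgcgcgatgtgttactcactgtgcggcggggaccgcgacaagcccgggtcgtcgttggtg
Rab20: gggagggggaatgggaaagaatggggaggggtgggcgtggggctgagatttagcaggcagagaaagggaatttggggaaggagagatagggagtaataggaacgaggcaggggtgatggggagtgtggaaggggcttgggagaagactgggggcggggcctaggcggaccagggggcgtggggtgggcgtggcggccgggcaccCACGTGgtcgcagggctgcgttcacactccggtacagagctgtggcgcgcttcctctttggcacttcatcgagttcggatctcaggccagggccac

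Lig4 and Abhd13 are adjacent in the gene order. Lig4 encodes DNA ligase IV, which seals broken ends in non-homologous end joining, and Abhd13 a member of the alpha/beta hydrolase family. Their windows overlap on opposite strands, and the starts of the 2 genes are 37 bases apart. The Lig4 window is chr8:9977631-9977930 on the minus strand and the Abhd13 window chr8:9977467-9977766 on the plus strand. The 136 shared bases are in capitals, each window being written 5′ to 3′ on its own strand. A further Lig4 window, from another annotated start, does not overlap that of Abhd13.
Lig4: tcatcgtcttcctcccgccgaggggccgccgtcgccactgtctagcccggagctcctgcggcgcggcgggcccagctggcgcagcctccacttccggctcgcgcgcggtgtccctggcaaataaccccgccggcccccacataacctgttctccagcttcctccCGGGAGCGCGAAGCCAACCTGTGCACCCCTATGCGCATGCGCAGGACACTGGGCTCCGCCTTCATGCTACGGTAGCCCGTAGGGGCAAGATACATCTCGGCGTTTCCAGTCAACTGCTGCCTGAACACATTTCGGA
Abhd13: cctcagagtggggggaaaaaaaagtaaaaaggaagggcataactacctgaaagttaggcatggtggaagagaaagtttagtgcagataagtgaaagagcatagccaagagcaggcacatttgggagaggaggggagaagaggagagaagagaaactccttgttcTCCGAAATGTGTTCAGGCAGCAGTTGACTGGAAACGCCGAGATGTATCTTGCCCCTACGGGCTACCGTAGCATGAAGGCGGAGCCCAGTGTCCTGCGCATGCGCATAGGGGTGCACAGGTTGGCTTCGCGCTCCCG

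Lig4 was 7.79, 7.57, 7.70 and 7.81 in shRNA OS replicates 1 to 4, against 9.08, 8.23, 8.04 and 8.38 in Cre:lox OS replicates 1 to 4. Abhd13 was 8.87, 9.14, 8.90 and 8.97 in shRNA OS replicates 1 to 4, against 10.59, 9.81, 9.45 and 9.43 in Cre:lox OS replicates 1 to 4. For both genes every shRNA OS tumour lay below every Cre:lox OS tumour, and Cre:lox OS replicate 1 was the highest. Its deviation was 1.27 for Lig4 and 1.46 for Abhd13. Ing1 encodes a reader of methylated histone H3 that belongs to Sin3 histone deacetylase complexes. It was 8.37, 8.26, 8.48 and 8.68 in shRNA OS replicates 1 to 4, against 9.52, 9.18, 8.88 and 9.01 in Cre:lox OS replicates 1 to 4, again with no overlap and with a deviation of 0.83 in Cre:lox OS replicate 1.

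Shcbp1, which binds the adaptor Shc and takes part in cytokinesis, was 7.24, 7.43, 7.41 and 6.86 in shRNA OS replicates 1 to 4, against 9.29, 7.89, 7.32 and 7.65 in Cre:lox OS replicates 1 to 4. Of the members it had the largest deviation in Cre:lox OS replicate 1, 1.88 or 3.68-fold, and the models overlapped. Mitosis genes were also high in that tumour: the 19 listed besides Shcbp1 had a median deviation of 0.52 there, and 10 of them reached 0.5. In shRNA OS replicate 1 Shcbp1 stood at -0.20 while the same 19 had a median deviation of 0.60. In Cre:lox OS replicate 2 Shcbp1 stood at 0.47 and the 19 at 0.52. Of the mitosis genes, Nuf2 (0.70), a kinetochore protein, and the cyclin gene Ccnb2 (0.65) had the largest deviations in Cre:lox OS replicate 1 after Shcbp1.

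Efnb2 encodes ephrin-B2, a membrane-bound ligand of Eph receptors that marks arteries and is known from signalling between osteoclasts and osteoblasts. It was 8.29, 8.76, 8.87 and 8.35 in shRNA OS replicates 1 to 4, against 9.54, 8.47, 8.53 and 9.65 in Cre:lox OS replicates 1 to 4. Both Cre:lox OS replicates 4 and 1 stood above the rest, with deviations of 1.12 and 1.01, and the other tumours of the models overlapped. Arglu1, a nuclear protein of transcription and splicing, was 8.91, 9.30, 9.16 and 9.43 in shRNA OS replicates 1 to 4, against 10.54, 9.58, 9.31 and 9.46 in Cre:lox OS replicates 1 to 4. Naxd encodes a dehydratase that repairs hydrated NAD(P)H, and it was 8.50, 8.97, 9.06 and 9.02 in shRNA OS replicates 1 to 4, against 9.96, 9.21, 9.12 and 9.05 in Cre:lox OS replicates 1 to 4. For Arglu1 and Naxd, Cre:lox OS replicate 1 lay 0.97 and 0.76 above the next tumour and the models overlapped.

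The height in Cre:lox OS replicate 1 ran along the chromosome rather than stopping at the members. The neighbourhood was taken as all measured genes between the outermost members and the 20 beyond Ing1, 72 genes in all, of which 62 are not members. These 62 had a median deviation of 0.43 in Cre:lox OS replicate 1, against 0.03 for all genes, and 30 of them reached 0.5. Among the 27 with a mean signal above the median of all genes, 23 reached 0.5 and the median deviation was 0.95, or 1.94-fold. Among the 35 with lower signal, 7 did so, with a median of 0.11. Mean signal was taken over all 8 tumours, Cre:lox OS replicate 1 included. A gene can therefore count as brighter partly through its height in that tumour. Over all genes with brighter signal, 7.83% reached 0.5 in Cre:lox OS replicate 1, with a median deviation of 0.07. In the other 7 tumours the median of the 27 brighter neighbours lay between -0.42 and 0.28.

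**Figure D2:**
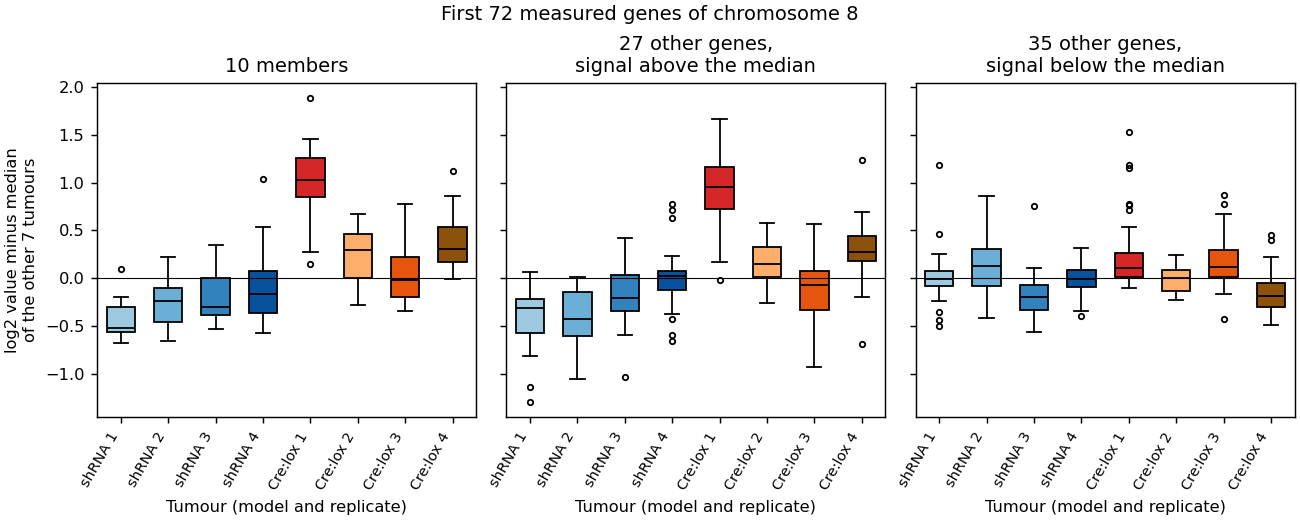
Boxes show the median and quartiles, whiskers reach to 1.5 times the interquartile range and circles lie beyond, of the deviation from the other 7 tumours (log2) for the 10 members and the 62 other genes of the neighbourhood, split by mean signal. Cre:lox OS replicate 1 stands apart for the members (median 1.03) and for the 27 brighter neighbours (0.95), and much less for the 35 dimmer ones (0.11).

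The 5 highest neighbours in Cre:lox OS replicate 1 were Ctxn1, Ccl25, Camsap3, Tubgcp3 and Timm44. Ctxn1, which encodes a small membrane protein known from neurons, was 10.86 there against 8.14 to 10.43 elsewhere (deviation 1.66). Ccl25, a chemokine of thymus and gut, was 9.38 against 6.97 to 8.04. Camsap3, which binds the minus ends of microtubules, was 8.81 against 6.78 to 8.02. Tubgcp3, a subunit of the gamma-tubulin complex, was 10.75 against 8.81 to 9.78, and Timm44, of the mitochondrial import motor, was 9.79 against 8.26 to 9.05. In all 5 genes Cre:lox OS replicate 1 lay above every other tumour. The 5 lowest were Slc10a2, Fcer2a, Spaca7, Fam155a and Cd209a, with deviations between -0.11 and -0.05 and mean signals of 4.67 to 7.08. Slc10a2 is the ileal bile acid transporter, Fcer2a a receptor of IgE on B cells and Spaca7 a sperm acrosome protein.

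Further along the chromosome the height ended within a few genes. Of the brighter genes other than members, 6 of 8 reached 0.5 in Cre:lox OS replicate 1 at ranks 1 to 25, 9 of 9 at ranks 26 to 50, 11 of 13 at ranks 51 to 75 and 10 of 14 at ranks 76 to 100. In the next 25 ranks this held for 0 of 1 and in the 25 after those for 0 of 15. The share over all genes with brighter signal was 7.83%. Within the first 150 ranks, the last brighter gene to reach 0.5 was Kbtbd11 (0.65, rank 93), and beyond it lay BB014433 (-0.03), Myom2 (0.94), Csmd1 (-0.18) and Mcph1 (-0.23). Myom2 encodes a protein of the muscle sarcomere, has a mean signal below the median of all genes and was also high in shRNA OS replicate 3 (1.51) and Cre:lox OS replicate 3 (0.97). These 5 genes were named after their values were seen. The 883 measured genes of chromosome 8 outside the neighbourhood had a median deviation of -0.05 in this tumour. Cut into 783 windows of 25 consecutive genes, the genome held 3 windows with a median of at least 0.5 in this tumour. Chromosome 8 held 2 of these, at ranks 26 to 50 (0.91) and 51 to 75 (0.71), and the other lay on chromosome 14 (0.90, from Pbrm1 to Parg). The first of these windows holds 8 members and the next 1, all picked on these values, so their place among the windows is a description. With the members left out, the medians were 0.78 over 17 genes and 0.62 over 24 genes.

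**Figure D3:**
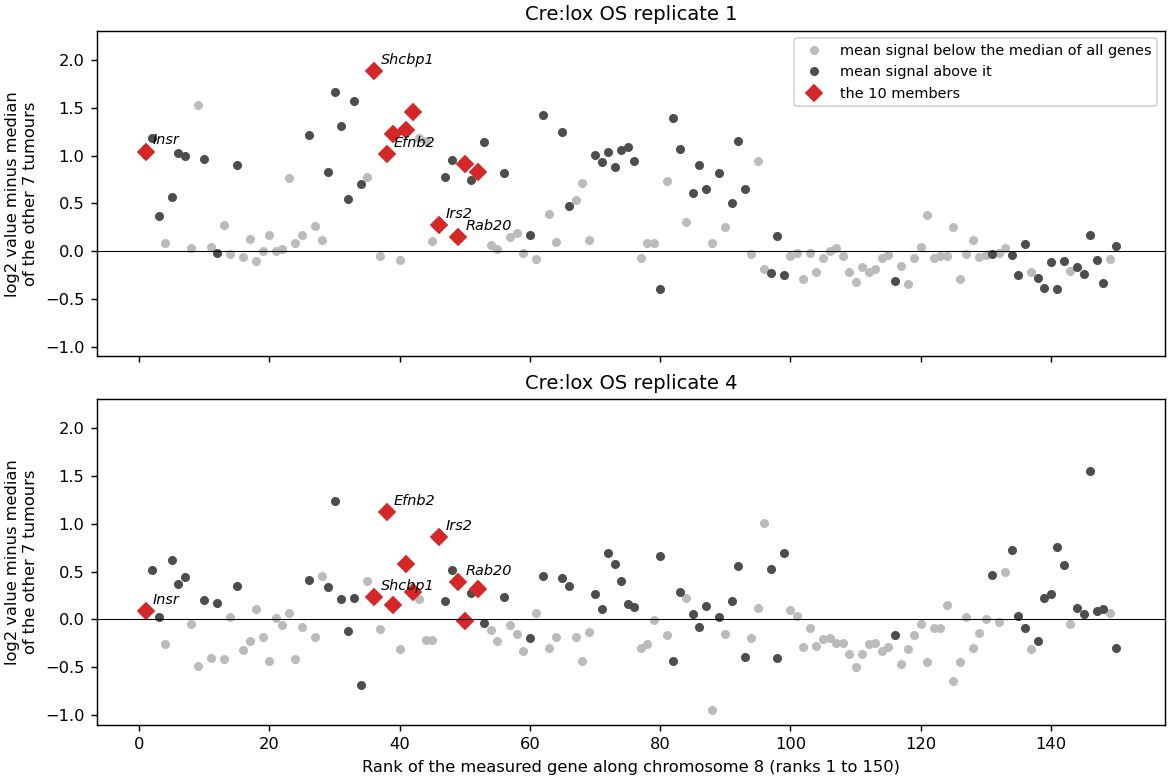
The deviation from the other 7 tumours (log2) is plotted against the rank of each measured gene along chromosome 8, for Cre:lox OS replicate 1 (above) and Cre:lox OS replicate 4 (below). In Cre:lox OS replicate 1 most brighter genes lie at 0.5 or above in each stretch of 25 up to rank 100 and none does between there and rank 150, with Irs2 at 0.27 and Rab20 at 0.15, while in Cre:lox OS replicate 4 Efnb2 (1.12) and Irs2 (0.86) are the highest of the members.

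Genes whose pattern over the 8 tumours was most like the mean of the members were sought among all other genes. The 5 with the highest Pearson correlation were Tubgcp3 (0.993), Evi5l (0.979), Snapc2 (0.974), Trappc5 (0.970) and Mcoln1 (0.965), all from the neighbourhood. Over the 7 tumours other than Cre:lox OS replicate 1 their correlations were 0.979, 0.945, 0.941, 0.920 and 0.912. That tumour was not fully left out, since it still entered the medians behind the members' deviations. The 5 genes were also picked on the correlation over all 8 tumours. Evi5l encodes a Rab GTPase-activating protein, Snapc2 a subunit of the complex that starts small nuclear RNA genes, Trappc5 a vesicle tethering subunit and Mcoln1 a lysosomal cation channel. Of the 50 most alike genes, 21 lay on chromosome 8, all within its first 100 measured genes. Chromosome 8 holds 955 of the 19856 genes placed in the gene order. The count carries no test, because the members behind the mean were picked on these values. Among the members themselves the correlation with their own mean ran from 0.966 for Lig4 to 0.476 for Irs2 and 0.276 for Rab20.

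Cell type markers were set against the other tumours in the same way. In Cre:lox OS replicate 1 all 12 skeletal muscle markers lay at least 0.5 above the median of the others. Their mean level was 10.04 there against 7.23 to 10.54 elsewhere. All 12 also did so in shRNA OS replicate 3 and Cre:lox OS replicate 3, where their mean level was 10.54 and 10.14. The members' median deviation in these tumours was -0.30 and -0.02. Pvalb (3.36) and the fast myosin genes Myh4 (2.80) and Myh1 (2.57) were highest among these markers in Cre:lox OS replicate 1. Of 8 fat cell markers 3 reached 0.5, led by Fabp4 (1.38), Lpl (0.97) and Pparg (0.86), and their mean level of 7.68 against 7.01 to 7.52 was the highest of the 8 tumours. The 11 endothelial markers averaged 9.703 there against 8.753 to 9.702, with Cldn5 at 0.58, Robo4 at 0.50 and Cdh5 at 0.47. The part of skeletal muscle, fat cells and endothelial cells in the members' values was not tested.

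The mean levels of the remaining marker lists, like that of skeletal muscle, lay within the range of the other tumours. Macrophage markers averaged 9.60 against 9.003 to 10.84, with Cd14 at -0.89, Lyz2 at -0.77 and Adgre1 at -0.64, and 7 of 14 lay at least 0.5 below the median of the others. Osteoclast markers averaged 10.86 against 8.73 to 11.27 (Calcr -0.96, Ocstamp 0.91, Dcstamp 0.83), and osteoblast markers 10.95 against 10.70 to 11.54 (Omd -2.02, Dmp1 -0.84, Phex -0.46). Lymphocyte markers averaged 6.28 against 5.94 to 6.68 (Klrb1c 0.99, Cd3g -0.54, Il7r 0.42). Neutrophil and erythroid markers averaged 6.36 against 6.29 to 6.41 (S100a9 0.24, Klf1 0.24, Ltf -0.18).

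The genes that work with the members were counted in the same way in Cre:lox OS replicate 1, where 5.53% of all genes reached 0.5, and these counts carry no test. Of the insulin and insulin-like growth factor signalling list, 39 of 42 genes were measured, and the 37 besides Insr and Irs2 had a median deviation of 0.08, with 3 at least 0.5 above and 5 at least 0.5 below. The 3 were Foxo1 (0.77), a transcription factor held back by insulin, the cytokine signalling inhibitor gene Socs3 (0.73) and the kinase gene Akt1 (0.65), named after their values were seen. Igf1r, the receptor most like Insr, stood at -1.56, with 9.85, 7.69, 10.23 and 10.34 in shRNA OS replicates 1 to 4, against 8.30, 8.32, 7.81 and 10.06 in Cre:lox OS replicates 1 to 4. The growth factor gene Igf1 stood at -0.89, and the other 3 low genes, also named after their values were seen, were Irs1 (-0.74), an adaptor like Irs2, Foxo3 (-0.59) and Grb14 (-0.54). Among 11 end-joining genes besides Lig4 none reached 0.5, the largest deviations being 0.30 for the kinase gene Prkdc and 0.18 for the polymerase gene Poll. Among 9 Eph and ephrin genes besides Efnb2, which include the ephrin-B binding Grip1, the receptor genes Epha4 (0.68) and Epha3 (0.64) reached it. None of 10 genes of the ING family and Sin3 complex besides Ing1 did so, with Hdac1 at 0.48 and Sin3a at 0.37. None of 7 genes of NAD metabolism besides Naxd did either, with Nampt, which makes NAD from nicotinamide, at -0.42 and Naxe, the epimerase partner of Naxd, at 0.21.

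The study compared shRNA OS with Cre:lox OS. All 10 members had lower means in shRNA OS, as did 48.1% of all genes. No member passed limma's test (adjusted p under 0.05 over all genes), where 0.0201% of genes did. Before adjustment, 3 of the 10 members and 1920 of all genes (9.63%) had a p under 0.05. The members' median difference, shRNA OS minus Cre:lox OS, was -0.50, against 0.01 over all genes. These tests share their values with the deviations that picked the members. Cell type markers were counted in the same way: macrophage markers had lower means in shRNA OS in 14 of 14 (median difference -0.65) and skeletal muscle markers in 12 of 12 (-0.62), while endothelial markers had higher means in 9 of 11 (0.25) and osteoblast markers in 8 of 11 (0.13). Osteoclast markers had higher means in shRNA OS in 7 of 10 (0.03), lymphocyte markers in 8 of 11 (0.10), neutrophil and erythroid markers in 7 of 10 (0.03) and fat cell markers in 4 of 8 (-0.01). The mean level of macrophage markers was 9.003 to 10.59 in shRNA OS and 9.60 to 10.84 in Cre:lox OS. That of skeletal muscle markers was 7.23 to 10.54 in shRNA OS and 7.73 to 10.14 in Cre:lox OS, and that of endothelial markers 9.18 to 9.702 in shRNA OS and 8.753 to 9.703 in Cre:lox OS. The osteoblast means, given above, did not overlap between the models. Phex, which is among these markers, was 11.08 to 12.00 in shRNA OS and 6.52 to 10.62 in Cre:lox OS. Means without Phex are not given, so the separation is not read as one of osteoblast markers in general. No gene of these lists passed limma's test, and their part in the members' differences was not tested.

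Ing1 averaged 8.45 ± 0.18 in shRNA OS and 9.15 ± 0.28 in Cre:lox OS (SD, n = 4 each), a difference of -0.70 (SE 0.17, limma adjusted p = 0.236). Abhd13 averaged 8.97 ± 0.12 in shRNA OS and 9.82 ± 0.55 in Cre:lox OS, a difference of -0.85 (SE 0.25, limma adjusted p = 0.294). Lig4 averaged 7.72 ± 0.11 in shRNA OS and 8.43 ± 0.45 in Cre:lox OS, a difference of -0.72 (SE 0.21, limma adjusted p = 0.307). In these 3 members every shRNA OS value lay below every Cre:lox OS value, which held for 3.44% of all genes and 5.49% of those with brighter signal. Without Cre:lox OS replicate 1 their differences were -0.57, -0.60 and -0.50, with limma adjusted p of 0.296, 0.276 and 0.322. The differences passed the test neither with nor without that tumour. Their direction could not change, since the values of the models do not overlap in these genes.

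For the other 7 members the models overlapped. Insr differed by -0.31 (SE 0.32, limma adjusted p = 0.837), by -0.03 without Cre:lox OS replicate 1 and by -0.52 without shRNA OS replicate 4. Irs2 differed by -0.35 (SE 0.33, limma adjusted p = 0.807), and by -0.70 without shRNA OS replicate 4 or -0.19 without Cre:lox OS replicate 4, the 2 tumours where it was high. Shcbp1 differed by -0.80 (SE 0.38), and by -0.38 without Cre:lox OS replicate 1. The differences of Arglu1 (-0.53), Efnb2 (-0.48), Naxd (-0.45) and Rab20 (-0.40) had limma adjusted p between 0.524 and 0.670. Without Cre:lox OS replicate 1 those of Arglu1, Efnb2 and Naxd were -0.25, -0.32 and -0.24, while that of Rab20 was -0.46. Without Cre:lox OS replicate 4 the difference of Efnb2 was -0.28, and without Cre:lox OS replicate 3 that of Rab20 was -0.25.

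**Figure D4:**
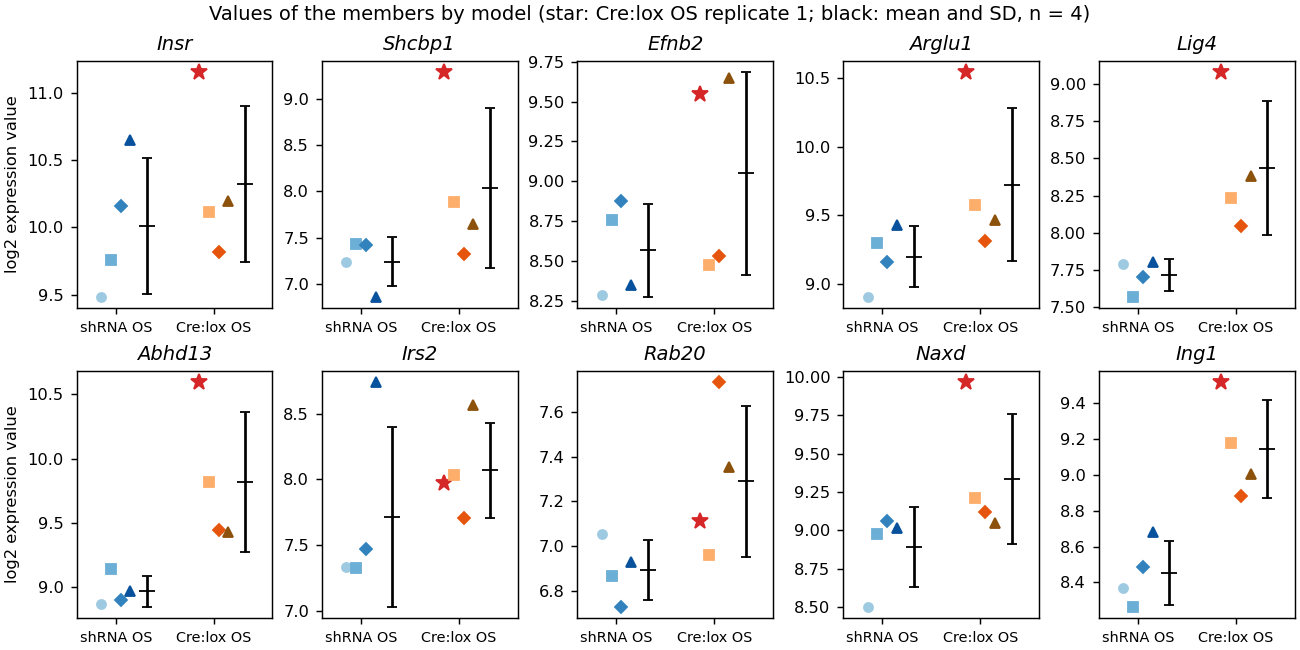
Each panel shows a member's log2 value in the 4 shRNA OS tumours (left, blue) and the 4 Cre:lox OS tumours (right), with the mean and SD in black and Cre:lox OS replicate 1 as a star. The models do not overlap for Lig4, Abhd13 and Ing1, and they overlap for the other 7 genes.

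No neighbour passed limma's test between the models, and most had the sign of the members. Of the 62 other genes of the neighbourhood, 47 had a lower mean in shRNA OS, against 48.1% of all genes. Of the 27 brighter ones 26 did, with a median difference of -0.47. Before adjustment, 11 of the 62 had a p under 0.05, against 9.63% of all genes. Without Cre:lox OS replicate 1, 42 of the 62 and 25 of the 27 had a lower mean in shRNA OS, against 9247 of all 19938 genes. The median difference of the 27 was then -0.29. In 7 of the 27 all shRNA OS values lay below all Cre:lox OS values, against 5.49% of all genes with brighter signal. The 7 were Mcoln1, Trappc5, Evi5l, Snapc2, Tubgcp3, Atp11a and Lamp1. Lamp1, a major protein of the lysosomal membrane, was 11.68, 11.64, 11.59 and 11.52 in shRNA OS replicates 1 to 4, against 12.72, 12.18, 12.23 and 12.37 in Cre:lox OS replicates 1 to 4. This gave a difference of -0.77 (SE 0.15, limma adjusted p = 0.147). Atp11a, a phospholipid flippase, differed by -1.20 (SE 0.24, limma adjusted p = 0.156). Lamp1 and Atp11a were named after their values were seen.

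Of the lists of partner genes, 0 genes passed limma's test between the models. Over all genes, 48.1% had lower means in shRNA OS. End-joining genes besides Lig4 had them in 10 of 11, with a median difference of -0.24. Mitosis genes besides Shcbp1 had them in 17 of 19, with a median of -0.35. Insulin signalling genes were lower in 24 of 37 (median -0.10), Eph and ephrin genes in 4 of 9 (0.02), genes of the ING family and Sin3 complex in 6 of 10 (-0.08) and those of NAD metabolism in 4 of 7 (-0.12). An unadjusted p under 0.05 was reached by 5 insulin signalling genes, 3 Eph and ephrin genes, 1 end-joining gene and 1 gene of NAD metabolism, against 9.63% of all genes. As shares of their lists these are 13.5%, 33.3%, 9.09% and 14.3%.

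In the comparison of Rb genotype, with the model as a covariate, 8 of 10 members had lower means in the 6 Rbfl/+ than in the 2 Rb+/+ tumours. The same sign was found for 53.0% of all genes and for 59 of the 62 other neighbourhood genes. The Rb+/+ tumours are Cre:lox OS replicate 1 and shRNA OS replicate 2, the library least like the rest. In these the 27 brighter neighbours had median deviations of 0.95 and -0.42, and the 35 dimmer ones 0.11 and 0.13. Genotype and what is particular to these 2 tumours cannot be told apart in the count of neighbours. No member passed limma's test, and 0% of all genes did, while 3 members and 943 of all genes had an unadjusted p under 0.05. Shcbp1 ranged from 6.86 to 7.89 (median 7.37) in Rbfl/+ tumours, against 7.43 and 9.29 in Rb+/+ tumours, a difference of -0.97 (SE 0.32, limma adjusted p = 0.836). Abhd13 ranged from 8.87 to 9.81 (median 9.20) in Rbfl/+ tumours, against 9.14 and 10.59 in Rb+/+ tumours, a difference of -0.63 (SE 0.21, limma adjusted p = 0.836). The higher Rb+/+ value is in each case that of Cre:lox OS replicate 1. Without it the differences were -0.26 and -0.23, and 5 of 10 members were lower in Rbfl/+. That fit holds a single Rb+/+ tumour, which is assumed to vary like the others.

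By tumour site, again with the model as a covariate, 8 of 10 members had lower means in the 5 tibial tumours than in the 3 of humerus or scapula. The same sign was found for 55.5% of all genes and for 49 of the 62 other neighbourhood genes. No member passed limma's test, and 0% of all genes did, while 2 members and 1125 of all genes had an unadjusted p under 0.05. Insr was 9.48, 9.76, 10.16, 9.82 and 10.20 in the tibial tumours, against 10.65, 11.16 and 10.11 in those of humerus or scapula. The difference was -0.72 (SE 0.27, limma adjusted p = 0.798), and -0.50 without Cre:lox OS replicate 1. Ing1 differed by -0.36 (SE 0.15, limma adjusted p = 0.845), and by -0.27 without that tumour. Cre:lox OS replicate 1 was the only scapular tumour, so its site and whatever else is particular to it cannot be told apart.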

How the data were processed

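The 8 tumours were each measured on a 1-colour array. Log2 values were deposited, made by RMA on mm9 per the submitters' processing notes; no version or filter is stated there. They run from 2.53 to 14.57. Arrays give no depth, and their number limits the precision.

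Of 35556 probe sets, the platform annotation gives 1 symbol for 21789 (used here, 19938 genes), several for 1621 and none for 12146. Gene order, for 19856 genes, came from a RefSeq table of another build (GRCm38.p6), used for order alone.

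Differences were tested with limma 3.58.1 (lmFit, eBayes) in R 4.3.3 over all genes with Benjamini-Hochberg adjustment, a fit tested on simulated data. Replicates were numbered in accession order, and no label says that they came from separate mice, so p-values measure the spread between these samples. Members, gene lists and tests were chosen with earlier results of these data known. Named genes were the members, the 5 highest and 5 lowest neighbours in the tumour where the members were highest (provisional Gm, LOC and Rik symbols left out), the 5 most alike genes, the 3 largest deviations per list and the members with the smallest limma p. Exceptions are marked in the text. Alternatives were quantile normalization, median centring, the mean of probe sets, a filter at the 25th percentile, eBayes with trend and robust, other covariates, the mean in place of the median of the other tumours, and leaving out each tumour.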

Additional observations from a re-analysis of the deposited data

Results flagged for a closer look

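Within each model of 4 tumours, a tumour whose gap to the nearest of the others took more of the group's range than Dixon's criterion allows was looked for, in 20 groups, and 2 were found. Chance gives about 1 in 20. Irs2 in shRNA OS replicate 4, the humeral tumour of that model, was 8.74, while the other 3 shRNA OS tumours lay between 7.32 and 7.47. Naxd in shRNA OS replicate 1 was 8.50, while the other 3 lay between 8.97 and 9.06. Cre:lox OS replicate 1 met the criterion for no member.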

How the results depend on the processing

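No member passed limma's threshold in any of the 15 alternatives for the model, the 14 for Rb genotype and the 14 for site that could be fitted, with the smallest adjusted p of a member between 0.157 and 0.407, 0.469 and 1.00, and 0.644 and 1.00. Before adjustment, 3 to 6 members had a limma p under 0.05 for the model and 0 to 3 for site. In the main fits 9.63% and 5.64% of all genes did. That share is not given for the alternatives, so nothing is read from these counts. For Rb genotype such counts are left out, because some of those fits hold a single Rb+/+ tumour. The sign of the model difference of each of the 10 members held in all 150 fits, but many of these could not change it. The filter, eBayes with trend and robust, and Rb genotype as a covariate leave each difference as it was. The mean of probe sets does so for every member except Insr. For Lig4, Abhd13 and Ing1, whose models do not overlap, leaving out a tumour could not reverse the sign. The smallest difference in size was that of Insr without Cre:lox OS replicate 1, -0.03. Because the members were picked on these values, the count carries no test. Over all genes, 4 were called between the models. That count was 42 with shRNA OS replicate 1 left out, 19 with Cre:lox OS replicate 1 left out, 7 with shRNA OS replicate 2 left out, and 1 with either Cre:lox OS replicate 2 or 4 left out. It was 0 when Cre:lox OS replicate 3 was dropped, and likewise for shRNA OS replicate 3 and for shRNA OS replicate 4. It was 13 with site as a covariate, 8 after quantile normalization and 2 after median centring. The members' median deviation in Cre:lox OS replicate 1 stayed between 0.96 and 1.12 over 11 alternatives. In an alternative chosen after seeing the data, the neighbours' median model difference was recomputed with each tumour dropped: it ran from -0.61 to -0.29 for the 27 brighter and from -0.23 to -0.08 for all 62, both smallest in size when Cre:lox OS replicate 1 was dropped. By Rb genotype, Shcbp1 differed by -1.68 and Abhd13 by -1.03 when shRNA OS replicate 2, an Rb+/+ tumour, was dropped. No paired analysis was possible because the replicate numbers follow accession order and pair no tumours. Signal over background was not analysed here, so how far dim genes could follow a change is not known.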
